A study of Mus musculus with 12 samples.

Results

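The IL-6 family was described in mouse mesangial cells (MMC) by 9 genes, chosen by name from 25230 counted genes. The 9 genes are 4 cytokines (Il6, Il11, Lif and Clcf1), 4 receptor chains (Il6st, Lifr, Osmr and Il11ra1) and Socs3, the feedback inhibitor of the pathway. MMC are the contractile cells that hold the capillary loops of the glomerulus together, and they were grown from glomeruli pooled from WT mice or from homozygous mice of the lncMGC-KO5 line. This line was made by injecting C57BL/6J embryos with Cas9 and a pair of guides on either side of the start site of the long non-coding RNA lncMGC, and it is 1 of several lines that were obtained. Each genotype was held in serum-depleted medium (SD) or given 10 ng/ml of TGF-β for 24 h. This gave 4 groups (WT-SD and WT-TGF for WT, KO-SD and KO-TGF for the knockout), with 3 RNA-seq libraries per group. All 4 groups were kept in the same medium with serum before the treatment. The sources used here do not give the age of the mice, nor how many mice or separate cultures stand behind the 3 libraries of a group, so the p-values below measure only the spread between libraries, and genotype and culture cannot be told apart.

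Cytokines of this family signal through gp130, the shared chain encoded by Il6st. IL-6 and IL-11 first bind a receptor chain of their own (Il6ra or Il11ra1) and then join gp130, while LIF uses gp130 paired with the chain encoded by Lifr, and oncostatin M uses gp130 paired with the chain encoded by Osmr. The paired chains bring JAK kinases together, which phosphorylate STAT3, and STAT3 in turn induces Socs3, which blocks gp130 signaling. In the kidney, IL-6 is known as a growth factor of mesangial cells and IL-11 as a profibrotic cytokine that acts downstream of TGF-β.

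In mm10 (RefSeq annotation of GRCm38.p6), the cytokine gene Il6 (NCBI gene 16193) spans chr5:30013114-30019975, Il11 (16156) chr7:4772373-4782907, Lif (16878) chr11:4257568-4272514 and Clcf1 (56708) chr19:4214238-4223505. Of the receptor genes, Il6st (16195) spans chr13:112464070-112506860 and Il11ra1 (16157) chr4:41760443-41769473. Osmr (18414) at chr15:6813568-6874968 and Lifr (16880) at chr15:7090610-7197489 are near each other on opposite strands. Socs3 (12702) spans chr11:117966079-117970336. Counts are of reads on the exons of these genes.

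Libraries held between 19898050 and 22827706 counts on genes. Levels are given as CPM, the count scaled to the library size after TMM normalization, and the floor of detection, set at 3 counts, was 0.13 to 0.16 CPM. The biological coefficient of variation within groups was 0.0268, so small differences passed the test. All 9 genes passed the filter on low expression (RPKM >1 in at least 1 library, 11477 genes tested). Il6 and Il11 passed it only through their TGF-β libraries, with no SD library above the limit in either genotype, and so could not have entered the test without a difference. lncMGC is not among the counted genes, so its loss could not be checked directly. The genotype was not checked through other genes here, and KO stands for the libraries labelled KO. Of 7 mesangial and smooth muscle markers, all 7 were above the floor in every group, and their summed level was 2530 to 2670 CPM in WT-SD, 5660 to 5820 CPM in WT-TGF, 4860 to 5030 CPM in KO-SD and 10700 to 10800 CPM in KO-TGF. The sum was mostly Acta2 and Tagln, contractile genes that averaged 1570 and 716 CPM in WT-SD, and 3 of the other markers did not follow it. Des, the intermediate filament desmin, averaged 0.529 ± 0.0234 CPM (SD, n = 3) in KO-SD against 7.68 ± 0.949 CPM in WT-SD. Myh11 averaged 0.73 ± 0.334 CPM in KO-SD against 1.39 ± 0.283 CPM in WT-SD. With TGF-β, the mean of Itga8 went from 2.9 ± 0.25 to 1.61 ± 0.236 CPM for WT and from 3.05 ± 0.349 to 0.637 ± 0.0475 CPM for KO.

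With TGF-β, all 4 cytokine genes rose in WT MMC and all 4 receptor chains and Socs3 fell. Calls were made at an adjusted p below 0.05 with edgeR's quasi-likelihood test. By this rule 4 of the 9 genes were higher and 5 lower in WT-TGF than in WT-SD, against 35.9% higher and 36.5% lower among all genes tested. In KO MMC 4 were higher and 4 lower, against 35.0% and 39.0%, and the response of Il11ra1 did not pass. In both genotypes the higher genes include Il6 and Il11, which entered the test only through their TGF-β libraries. The rise was steepest for Il11, and among the receptor chains the fall was deepest for Lifr.

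Il11 was nearly silent without TGF-β. It was 1.5, 0.999 and 1.32 CPM in the WT-SD libraries and 63.5, 59.3 and 64.8 CPM in the WT-TGF libraries. In KO it was 1.38, 1.30 and 1.06 CPM in SD and 54.7, 55.4 and 56.9 CPM in TGF. Every TGF-β library thus lay far above every SD library. The increase was 49.0-fold in WT (log2 fold change, log2FC, 5.61, standard error 0.087, adjusted p = 1.96e-30) and 44.5-fold in KO (log2FC 5.48, standard error 0.0912, adjusted p = 9.26e-30).

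Il6 stayed scarce even after treatment. Its CPM were 0.319, 0.391 and 0.593 in WT-SD and 3.50, 4.46 and 4.74 in WT-TGF. They were 0.873, 0.773 and 0.642 in KO-SD and 8.45, 8.12 and 8.03 in KO-TGF. The 4 groups did not overlap and stood in the order WT-SD, KO-SD, WT-TGF and KO-TGF. The WT-SD values rest on 7, 9 and 13 counts and the KO-SD values on 19, 16 and 14. Il6 rose 9.63-fold with TGF-β in WT (log2FC 3.27, standard error 0.223, adjusted p = 4.1e-14) and 10.7-fold in KO (log2FC 3.42, standard error 0.175, adjusted p = 2.86e-17).

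Lif, which holds stem cells undifferentiated and acts widely as a tissue cytokine, was already clearly expressed without TGF-β. Its CPM were 15.9, 18.0 and 17.6 in WT-SD and 75.0, 67.3 and 75.8 in WT-TGF. In KO they were 19.3, 17 and 18 in SD and 67.0, 63.1 and 63.9 in TGF. SD and TGF libraries were far apart in both genotypes, with an increase of 4.23-fold in WT (log2FC 2.08, standard error 0.055, adjusted p = 1.4e-24) and of 3.57-fold in KO (log2FC 1.83, standard error 0.0565, adjusted p = 6.22e-23).

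Clcf1, a neurotrophic and B-cell-stimulating cytokine, changed least with TGF-β among the 4 cytokine genes. Its CPM were 61.6, 64.9 and 67.8 in WT-SD and 104, 102 and 102 in WT-TGF. They were 25.7, 30.4 and 31.4 in KO-SD and 41.9, 41.0 and 39.1 in KO-TGF. No KO library, treated or not, reached the lowest WT library. Clcf1 rose by 58.4% in WT (log2FC 0.66, standard error 0.044, adjusted p = 2.17e-14) and by 39.5% in KO (log2FC 0.48, standard error 0.057, adjusted p = 8.38e-09). In GENCODE vM21 its exons overlap those of AC109138.7 on the same strand, a gene that was not counted, so reads from the pair cannot be told apart.

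**Figure D1:**
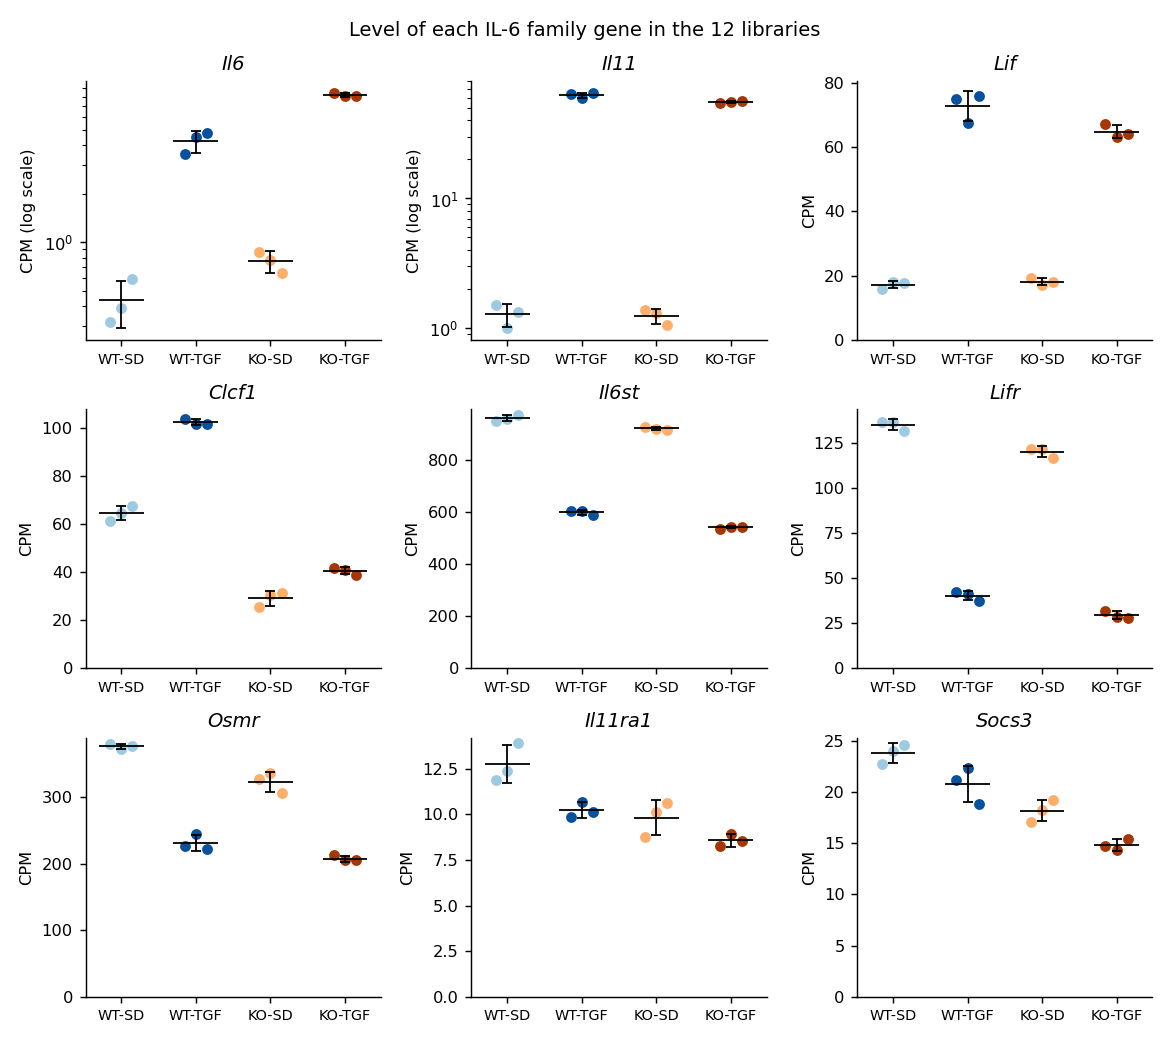
Level of the 9 IL-6 family genes in CPM (library sizes scaled by TMM) in each of the 12 libraries, by group. Points are libraries, the wide line is the mean and the bars are the SD (n = 3). The axes of Il6 and Il11 are logarithmic and all others are linear from 0. The cytokines are higher and Il6st, Lifr and Osmr lower in the TGF-β libraries of both genotypes, and Clcf1 is lower in all KO libraries.

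The start regions of these genes are shown because the cytokine genes rose together while the receptor chains fell. RefSeq (GRCm38.p6) gave 11 windows from 250 bases before to 50 bases after an annotated start for 8 of the 9 genes, and Clcf1 had none. The windows were searched on both strands for AP-1 (TGANTCA), CRE (TGACGTCA), SMAD (GTCTAGAC), STAT (TTCNNNGAA), C/EBP (TTGNNCAA), TEAD (GGAATG) and NF-kB. None of these matches overlapped another in the windows shown. AP-1 letters were found in 4 of the 11 windows, from Il6, Il11, Lif and Osmr, against 7.81% of all 32851 windows. STAT letters were found in 1 of the 11, the window of Socs3, against 8.3% of all windows, and in no window of the other members. The 250 bases before the start follow, 5′ to 3′ on the strand of the gene, with the matches in capitals. Il6 lies at chr5:30012864-30013113 on the plus strand and holds AP-1 letters 249 bases, C/EBP letters 128 bases and NF-kB letters 44 bases before the start. Il11 had 2 windows and is shown at the inner start, chr7:4778142-4778391 on the minus strand, with AP-1 letters 98 bases before the start. Lif lies at chr11:4257318-4257567 on the plus strand, with AP-1 letters 228 bases before the start, and Socs3 at chr11:117969367-117969616 on the minus strand, with STAT letters 154 bases before the start.
Il6: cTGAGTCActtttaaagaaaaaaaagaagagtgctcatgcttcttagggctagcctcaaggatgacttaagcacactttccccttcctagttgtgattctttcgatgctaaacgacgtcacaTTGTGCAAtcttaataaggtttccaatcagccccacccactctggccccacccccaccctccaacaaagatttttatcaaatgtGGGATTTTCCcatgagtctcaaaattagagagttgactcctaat
Il11: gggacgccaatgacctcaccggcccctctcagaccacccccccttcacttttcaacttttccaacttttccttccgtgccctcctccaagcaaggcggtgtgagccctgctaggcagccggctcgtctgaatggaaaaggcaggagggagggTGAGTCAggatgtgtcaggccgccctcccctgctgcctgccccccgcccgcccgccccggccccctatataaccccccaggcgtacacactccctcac
Lif: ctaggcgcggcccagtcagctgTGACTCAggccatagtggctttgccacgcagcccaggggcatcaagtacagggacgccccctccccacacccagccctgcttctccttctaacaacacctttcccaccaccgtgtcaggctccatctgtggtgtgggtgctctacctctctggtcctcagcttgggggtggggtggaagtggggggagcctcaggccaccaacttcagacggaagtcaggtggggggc
Socs3: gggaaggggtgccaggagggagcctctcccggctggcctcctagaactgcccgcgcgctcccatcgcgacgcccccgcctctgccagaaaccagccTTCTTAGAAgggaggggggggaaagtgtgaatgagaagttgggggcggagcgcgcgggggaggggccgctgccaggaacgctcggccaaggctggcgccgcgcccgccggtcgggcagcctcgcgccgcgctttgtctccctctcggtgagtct

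These matches describe the sequence and do not show binding in these cells. The outer window of Il11 held none of the motifs, and neither did the windows of Il6st and Lifr. The AP-1 letters of Osmr began just after its start. C/EBP and NF-kB letters, found in Il6 alone among the members with a window, were present in 6.4% and 0.411% of all windows. TEAD letters were in 1 of the 11 windows, that of a second start of Il11ra1, against 14.7% of all windows. CRE and SMAD letters were in none, against 1.79% and 0.213% of all windows. Only the full SMAD letters GTCTAGAC were searched, so shorter SMAD sites were not looked for.

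Among the receptor chains, Lifr lost most. Its CPM were 137, 137 and 132 in WT-SD and 42.2, 41.4 and 37.4 in WT-TGF. In KO they were 122, 122 and 117 in SD and 31.9, 28.5 and 27.9 in TGF. All 4 groups were apart, and KO-TGF was lowest. Lifr fell by 70.2% with TGF-β in WT (log2FC -1.74, standard error 0.0433, adjusted p = 2.85e-25) and by 75.5% in KO (log2FC -2.03, standard error 0.047, adjusted p = 3.88e-26).

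Il6st, the signal-transducing chain that these cytokines share, was the most abundant of the 9 genes per exon length in every group. Its CPM were 950, 958 and 971 in WT-SD and 602, 604 and 588 in WT-TGF. They were 926, 918 and 916 in KO-SD and 536, 544 and 544 in KO-TGF. The groups did not overlap, and the loss was smaller than that of Lifr. Il6st fell by 37.7% in WT (log2FC -0.68, standard error 0.0215, adjusted p = 1.38e-22) and by 41.2% in KO (log2FC -0.77, standard error 0.0217, adjusted p = 7.33e-24).

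Osmr, the oncostatin M chain, followed a like course. Its CPM were 380, 373 and 377 in WT-SD and 227, 245 and 222 in WT-TGF. In KO they were 327, 336 and 307 in SD and 213, 205 and 205 in TGF. TGF-β libraries were below all SD libraries of both genotypes. Osmr fell by 38.5% in WT (log2FC -0.70, standard error 0.0325, adjusted p = 2.68e-18) and by 35.8% in KO (log2FC -0.64, standard error 0.0332, adjusted p = 3.86e-17). Its ligand gene Osm had at most 1 count in any library, below the floor, and no fold is given for it.

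Il11ra1, the chain that binds IL-11, was the scarcest of the 4 receptor chains per exon length. Its CPM were 11.9, 12.4 and 13.9 in WT-SD and 9.87, 10.7 and 10.1 in WT-TGF. They were 8.73, 10.1 and 10.6 in KO-SD and 8.24, 8.92 and 8.55 in KO-TGF. The groups were apart in WT and overlapped in KO. Il11ra1 fell by 19.6% in WT (log2FC -0.32, standard error 0.0833, adjusted p = 0.00124). In KO the log2FC was -0.20 (adjusted p = 0.0602), and it was called with scaling by library size alone (-0.40, adjusted p = 0.000321) and without KO-SD replicate 1 (-0.28). The mouse genome holds the near-identical copy Il11ra2, which had no count in any library. Reads that align equally well to several copies were not counted, so the level of Il11ra1 is uncertain.

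Socs3 is induced by STAT3 within minutes to hours in many cells and then limits gp130 signaling. Its CPM were 22.7, 24.0 and 24.6 in WT-SD and 21.2, 22.3 and 18.8 in WT-TGF. They were 17.1, 18.2 and 19.2 in KO-SD and 14.7, 14.3 and 15.4 in KO-TGF. At 24 h it was thus below its SD level in both genotypes, by a small margin in WT. It fell by 12.6% in WT (log2FC -0.19, standard error 0.0632, adjusted p = 0.0071) and by 18.3% in KO (log2FC -0.29, standard error 0.0728, adjusted p = 0.000686). The WT call rested on WT-TGF replicate 3, without which the log2FC was -0.13 (adjusted p = 0.0818).

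Scaling mattered for all of these log2FC. Without TMM, with libraries scaled by their size only, the median of all genes moved from -0.01 to -0.16 in WT and from -0.02 to -0.23 in KO, and the share of all genes called became 22.9% higher and 52.5% lower in WT and 19.9% higher and 58.3% lower in KO. None of the 9 genes changed direction with TGF-β under that scaling, and the log2FC of Il11 was then 5.46 for WT and 5.27 for KO.

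**Figure D2:**
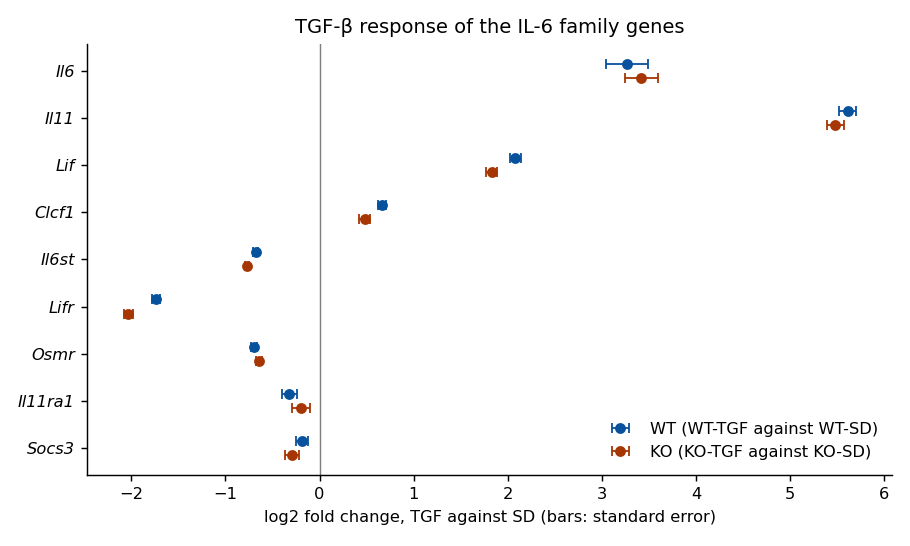
Log2 fold change of each IL-6 family gene with TGF-β (TGF against SD) in WT and KO MMC, with bars of the standard error from edgeR, 3 libraries per group. The 4 cytokine genes lie right of 0, from 0.48 for Clcf1 in KO to 5.61 for Il11 in WT, and the receptor chains and Socs3 lie left of 0.

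Levels of different genes were compared per exon length, as RPKM. In WT-SD the order was Il6st (86.5 ± 0.956, SD, n = 3), Osmr (31.1 ± 0.266), Clcf1 (17 ± 0.809), Lifr (12.6 ± 0.276), Socs3 (8.23 ± 0.333), Lif (3.95 ± 0.247), Il11ra1 (2.85 ± 0.225), Il11 (0.613 ± 0.123) and Il6 (0.179 ± 0.0584). After TGF-β in WT, Il11 was second only to Il6st, at 30.1 ± 1.4 against 53.9 ± 0.792, followed by Clcf1 (26.9 ± 0.328), Osmr (19.1 ± 1.02) and Lif (16.7 ± 1.09). Socs3 (7.18 ± 0.624), Lifr (3.74 ± 0.238), Il11ra1 (2.28 ± 0.0956) and Il6 (1.74 ± 0.268) stood below these. A cytokine message that was near the bottom of the family in serum-depleted cells had thus become one of its most abundant.

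KO MMC showed the same genes at the top and a lower place for Clcf1. In KO-SD the order was Il6st (82.9 ± 0.448 RPKM), Osmr (26.7 ± 1.22), Lifr (11.2 ± 0.277), Clcf1 (7.66 ± 0.801), Socs3 (6.27 ± 0.361), Lif (4.16 ± 0.271), Il11ra1 (2.20 ± 0.218), Il11 (0.599 ± 0.0813) and Il6 (0.314 ± 0.0476). In KO-TGF it was Il6st (48.8 ± 0.432), Il11 (26.7 ± 0.533), Osmr (17.1 ± 0.418), Lif (14.9 ± 0.468), Clcf1 (10.7 ± 0.367), Socs3 (5.12 ± 0.195), Il6 (3.38 ± 0.0915), Lifr (2.73 ± 0.203) and Il11ra1 (1.92 ± 0.0764). Neighbors in these 4 orders did not overlap between libraries. The orders depended on the length used: per coding length, Clcf1 and Lif were above Il11 in WT-TGF and Lif was above Il11 in KO-TGF, and in KO-SD the libraries of Clcf1 and Lifr overlapped.

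The balance between receptor chains shifted as well. The RPKM of Il6st was 6.89 ± 0.224 times that of Lifr in WT-SD and 14.4 ± 0.737 times in WT-TGF, and 7.42 ± 0.163 times in KO-SD and 17.9 ± 1.43 times in KO-TGF. That ratio did not overlap between SD and TGF libraries in either genotype. The ratio of Il6st to Osmr stayed between 2.69 and 3.26 in all 12 libraries. The ligand-to-receptor ratio of Il11 to Il11ra1 went from 0.216 ± 0.0496 to 13.2 ± 1.11 in WT and from 0.276 ± 0.0627 to 14.0 ± 0.542 in KO. The ratio of Clcf1 to Lif went from 4.32 ± 0.167 to 1.62 ± 0.0997 in WT and from 1.85 ± 0.291 to 0.719 ± 0.0214 in KO, so Clcf1 was above Lif per exon length in every library but those of KO-TGF. These ratios compare messages, not proteins.

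**Figure D3:**
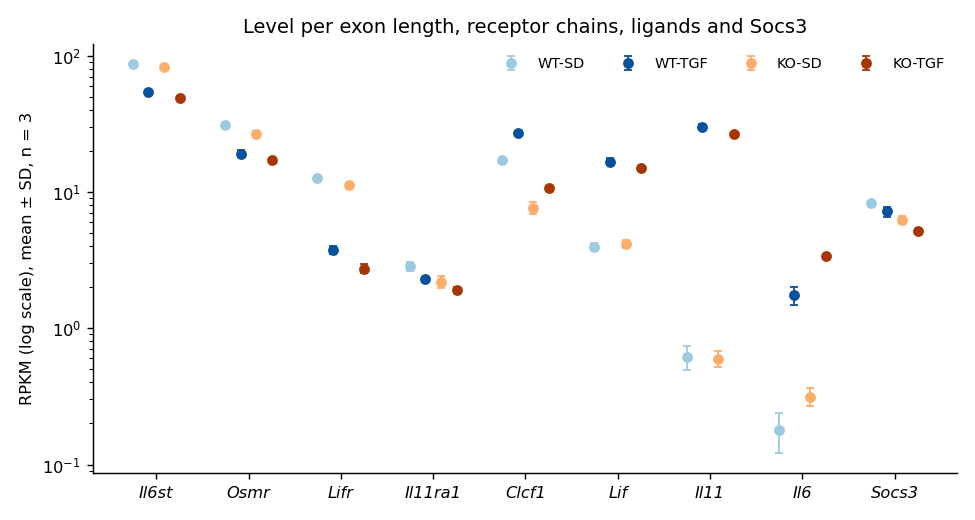
Level per exon length (RPKM, log scale, mean ± SD, n = 3) of the receptor chains, cytokines and Socs3 in the 4 groups. Il6st is highest in every group, and Il11 moves from 0.613 in WT-SD to 30.1 in WT-TGF, above all receptor chains but Il6st.

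Between the genotypes, Il6 was the member with a higher level in KO and Clcf1 the one with the largest lower level. In SD, 1 of the 9 genes was higher and 6 were lower in KO, against 30.6% higher and 25.3% lower among all genes tested. In TGF, 1 was higher and 8 were lower, against 27.2% and 27.8%. With scaling by library size alone these shares became 21.2% and 36.3% in SD and 14.3% and 46.9% in TGF, and the median of all genes moved from -0.00 to -0.13 in TGF.

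Clcf1 averaged 64.8 ± 3.08 CPM (SD, n = 3) in WT-SD, and KO-SD held 29.2 ± 3.05 CPM, 2.22-fold less (log2FC -1.15, standard error 0.0521, adjusted p = 3.86e-18). With TGF-β the means were 103 ± 1.25 CPM for WT and 40.7 ± 1.40 CPM for KO, 2.52-fold less (log2FC -1.33, standard error 0.0482, adjusted p = 1.27e-20). It was the only member with a fold change above 2 between the genotypes, and it was so in both conditions.

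Il6 went the other way. Its mean of 8.20 ± 0.222 CPM in KO-TGF was 1.94-fold that of WT-TGF, 4.23 ± 0.651 CPM (log2FC 0.95, standard error 0.122, adjusted p = 7.3e-08). In SD the means were 0.763 ± 0.116 CPM for KO and 0.434 ± 0.142 CPM for WT (log2FC 0.81, standard error 0.332, adjusted p = 0.0399). The SD call was lost with DESeq2 (adjusted p = 0.0542), with library size alone (adjusted p = 0.0604) and in 7 of the 12 fits that left out a library, with log2FC from 0.63 to 1.08. In a fit of the SD groups alone, Il6 did not reach the filter on low expression and was not tested.

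The 4 receptor chains were all lower in KO in both conditions, by small margins. The change of Lifr was -11.1% in SD and -27.1% in TGF (log2FC -0.17 and -0.46, adjusted p = 0.00036 and 1.37e-08). For Osmr the log2FC was -0.22 (adjusted p = 6.69e-07) without and -0.16 (adjusted p = 2e-04) with TGF-β. Il11ra1 had a log2FC of -0.37 (adjusted p = 0.000343) without and of -0.25 (adjusted p = 0.0214) with TGF-β. The latter was not called with DESeq2 (adjusted p = 0.0752), nor when WT-TGF replicate 2 or either of the KO-TGF replicates 1 and 3 was left out. Il6st differed by a log2FC of -0.14 (adjusted p = 1.47e-06) with TGF-β and of -0.06 (adjusted p = 0.0147) without. The smaller of these was lost with no filter on low expression (-0.03), with genes kept at CPM >1 in 3 or more libraries (-0.05) and without WT-SD replicate 3.

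Socs3 was lower in KO by log2FC of -0.39 in SD (standard error 0.0647, adjusted p = 5.77e-06) and -0.49 in TGF (standard error 0.0712, adjusted p = 7.54e-07), with no overlap of libraries. Il11 and Lif did not pass in SD, where their libraries overlapped between the genotypes. The log2FC was -0.03 for Il11 (95% interval -0.44 to 0.38) and 0.08 for Lif (95% interval -0.06 to 0.21). In TGF both were lower in KO by a log2FC of -0.17, with adjusted p = 0.00198 for Il11 and 0.00231 for Lif.

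Markers of other cell types moved with the genotype. The summed level of 12 macrophage markers was 29.2 to 31.2 CPM in WT-SD and 17.9 to 22.0 CPM in WT-TGF, against 2.20 to 2.61 CPM in KO-SD and 1.12 to 1.71 CPM in KO-TGF. Above the floor were 11 of the 12 markers in each WT group, 4 in KO-SD and 3 in KO-TGF. Adgre1, C1qa, C1qb, C1qc and Tyrobp had no count in any KO library. Of 6 tubular epithelial markers, 3 were above the floor in each group, and their sum was 67.8 to 74.6 CPM in WT-SD, 17.2 to 18.8 in WT-TGF, 12.9 to 15 in KO-SD and 4.01 to 4.25 in KO-TGF. Of 6 podocyte markers, 3 were above the floor in each group, with sums of 440 to 465 CPM over both WT groups and 203 to 222 CPM over both KO groups. For 6 endothelial markers the sums were 18.6 to 19.9 CPM in WT-SD, 39.5 to 43.2 in WT-TGF, 11.4 to 11.8 in KO-SD and 13.1 to 14.3 in KO-TGF, with 2 above the floor in WT, 4 in KO-SD and 3 in KO-TGF. This sum was nearly all Flt1 (19 ± 0.638 CPM in WT-SD, 10.7 ± 0.174 CPM in KO-SD), while Pecam1 and Tek had means of 0.0601 and 0.076 CPM in WT-SD and 0.155 and 0.218 CPM in KO-SD. Their part in the differences of the IL-6 family genes was not tested. In bulk libraries, fewer cells of a type and less RNA per cell cannot be told apart.

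**Figure D4:**
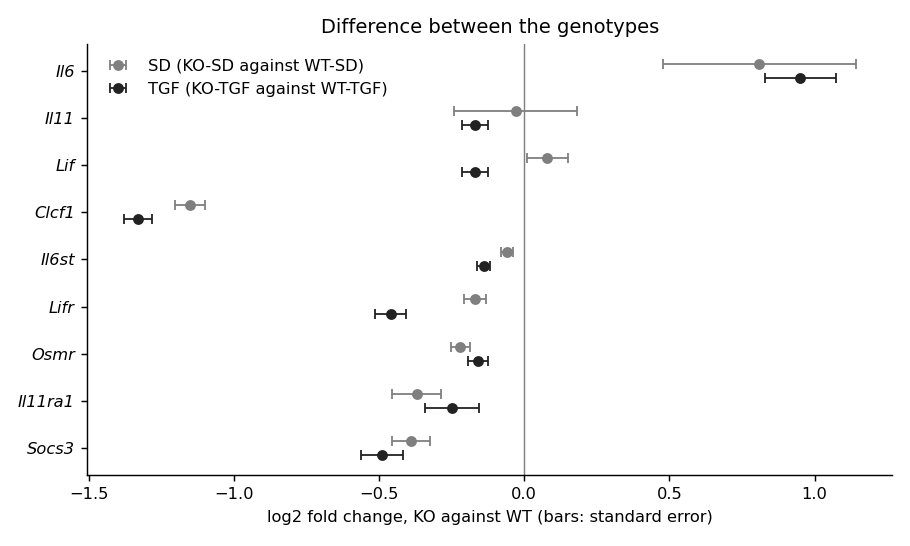
Log2 fold change between KO and WT MMC for each IL-6 family gene, in SD and in TGF, with bars of the standard error from edgeR, 3 libraries per group. Il6 lies right of 0 (0.81 and 0.95), Clcf1 is farthest left (-1.15 and -1.33), and the receptor chains and Socs3 lie between -0.49 and -0.06.

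Whether the TGF-β response itself differed between the genotypes was tested as the interaction, the log2 response in KO minus that in WT. It passed for 3 of the 9 genes, all with a more negative response in KO, against 8.77% of all genes with a more positive and 16.6% with a more negative response. With library size alone these shares were 5.95% and 23%. Lifr fell further in KO, by a difference of -0.29 (standard error 0.0657, adjusted p = 0.00118), and this was called under each alternative tried. Lif rose less in KO, by a difference of -0.25 (standard error 0.0829, adjusted p = 0.0272), which was not called with DESeq2 (-0.22, adjusted p = 0.0935) or in 6 of the 12 fits without a library. Il6st fell slightly further (-0.08, standard error 0.0305, adjusted p = 0.0454), which was not called with DESeq2 (-0.06, adjusted p = 0.204) or in 9 of those 12 fits. Leaving out WT-SD replicate 1, WT-TGF replicate 1 or either of the KO-TGF replicates 2 and 3 left Lifr as the 1 member called.

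The other 6 responses were not called. Clcf1 had a difference of -0.18 (adjusted p = 0.0625) and was called with library size alone (-0.23, adjusted p = 0.0162) and with no filter (-0.20, adjusted p = 0.0155). It was also called without WT-SD replicate 3 (-0.22, adjusted p = 0.0354) and without KO-SD replicate 1 (-0.27, adjusted p = 0.00101). The difference was 0.15 for Il6 (95% interval -0.60 to 0.90) and -0.14 for Il11 (95% interval -0.56 to 0.29), intervals that are wide because both had few counts in SD. It was 0.06 for Osmr (95% interval -0.03 to 0.15), 0.12 for Il11ra1 (95% interval -0.13 to 0.37) and -0.10 for Socs3 (95% interval -0.29 to 0.09). The lower level of Clcf1 and Socs3 in KO-TGF was also seen in KO-SD. Il6 was higher in KO-SD as well, but on few counts and with a call that was lost under several alternatives given above.

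The rest of the pathway was read from 5 lists of 49 genes, of which 39 were tested. With TGF-β, 14 of the 39 were higher and 23 lower in WT, and 12 were higher and 22 lower in KO. Among all genes tested, 35.9% were higher and 36.5% lower in WT and 35.0% and 39.0% in KO, so the share of higher genes was near or below that of all genes. The median log2FC of the 39 genes was -0.17 in WT and -0.16 in KO, against -0.01 and -0.02 for all genes tested. In KO against WT, 10 were higher and 22 lower in SD (median -0.14, all genes 0.02), and 8 were higher and 19 lower in TGF (median -0.11, all genes -0.00). The shares of all genes were 30.6% higher and 25.3% lower in SD and 27.2% and 27.8% in TGF.

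Of 8 other ligand genes of the family, 2 were tested, and with TGF-β 1 was higher and 1 lower in each genotype. Among all genes tested, 35.9% were higher and 36.5% lower in WT, and 35.0% and 39.0% in KO. The lower one was Ctf1, which encodes cardiotrophin and was named after its values were seen. Its means without and with TGF-β were 5.39 ± 0.547 and 3.78 ± 0.425 CPM for WT and 4.89 ± 0.592 and 2.44 ± 0.137 CPM for KO (adjusted p = 0.000836 and 7.27e-07).

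Of 5 other receptor chains, 2 were tested. Il6ra, which IL-6 binds first, averaged 9.13 ± 0.364 CPM before and 4.85 ± 0.773 CPM after TGF-β in WT, and 9.45 ± 0.531 and 4.87 ± 0.429 CPM in KO. It fell with TGF-β (log2FC -0.92 and -0.96, adjusted p = 7.4e-09 and 5.04e-09) and was not called between the genotypes. Il6ra passed the filter on low expression only through its SD libraries, at 1.02 to 1.13 RPKM. Its TGF-β libraries were at 0.495 to 0.663 RPKM, so it could not have entered the test without a difference. Cntfr, which binds CLCF1 together with the Lifr and Il6st chains and was named after its values were seen, rose with TGF-β, with means of 2.49 ± 0.251 and 3.50 ± 0.14 CPM for WT and 3.21 ± 0.487 and 4.35 ± 0.26 CPM for KO (log2FC 0.48 and 0.44, adjusted p = 0.00515 and 0.00607).

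Below the receptors, 7 of 8 genes for JAK kinases, STAT factors and the phosphatase SHP2 fell with TGF-β in WT and 1 rose, against 36.5% lower and 35.9% higher among all genes. In KO 5 fell and 2 rose, against 39.0% and 35.0%. Stat3, the main factor of the pathway, averaged 256 ± 5.01 CPM in WT-SD, 234 ± 3.51 in WT-TGF, 232 ± 6.57 in KO-SD and 232 ± 5.44 in KO-TGF. It fell in WT (log2FC -0.13, adjusted p = 8.71e-05) and was not called in KO. Jak2, a kinase of the gp130 complex, averaged 230 ± 3.4 CPM in WT-SD, 155 ± 5.06 in WT-TGF, 146 ± 5 in KO-SD and 123 ± 3.44 in KO-TGF. It fell with TGF-β in both genotypes and was lower in KO by a log2FC of -0.66 without (adjusted p = 3.08e-18) and -0.33 with TGF-β (adjusted p = 2.04e-10). Jak1, the other main kinase, had log2FC of -0.07 in WT (adjusted p = 0.0174) and 0.10 in KO (adjusted p = 0.000904), and the latter was -0.10 with library size alone. Between the genotypes, 7 of the 8 were lower in KO-SD, and the exception was Ptpn11, the gene of SHP2, named after its values were seen. In KO-TGF 3 were lower and 1 was higher. Among all genes tested, 25.3% were lower and 30.6% higher in KO-SD, and 27.8% were lower and 27.2% higher in KO-TGF.

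Of 10 other inhibitors tested, 5 rose and 3 fell with TGF-β in WT, and 3 rose and 4 fell in KO, against 35.9% and 36.5% of all genes in WT and 35.0% and 39.0% in KO. Unlike Socs3, both Socs1 and Socs2 were higher after TGF-β. Socs1 was 1.70 ± 0.249 and 4.36 ± 0.288 CPM in WT and 2.22 ± 0.162 and 4.88 ± 0.599 CPM in KO (log2FC 1.35 and 1.13, adjusted p = 7.03e-09 and 7.11e-08). Like Il6 and Il11, Socs1 passed the filter on low expression only through its TGF-β libraries. Its RPKM was at most 0.821 in SD and at least 1.43 in TGF, so it could not have entered the test without a difference. Socs2, an inhibitor of growth hormone signaling, was 9.12 ± 0.732 and 22.8 ± 2.15 CPM in WT and 3.07 ± 0.338 and 11.5 ± 0.469 CPM in KO (log2FC 1.32 and 1.91, adjusted p = 1.78e-15 and 2.26e-15). It was lower in KO by log2FC of -1.57 in SD and -0.99 in TGF.

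All 17 known STAT3 target genes were tested, and with TGF-β 6 rose and 11 fell in WT and 5 rose and 11 fell in KO, with median log2FC of -0.38 and -0.59. The number that rose was near the share of all genes (35.9% in WT and 35.0% in KO), while 36.5% of all genes fell in WT and 39.0% in KO. Many of these genes are also regulated by factors other than STAT3. The risers in both genotypes were Timp1, an inhibitor of matrix proteases (log2FC 2.24 in WT and 2.52 in KO), the transcription factors Myc (1.57 and 1.07) and Junb (1.31 and 1.35), the angiogenic factor Vegfa (1.13 and 1.51) and the kinase Pim1 (0.88 and 1.18). Among those that fell were the acute-phase genes Hp (-1.80 and -2.55), Saa3 (-1.10 and -1.39), Lcn2 (-0.97 and -1.25) and Serpina3n (-0.36 and -1.27), the transcription factor Cebpd (-1.02 and -1.85), the IκB-like regulator Bcl3 (-0.79 and -1.10), and the cell cycle genes Birc5 (-1.56 and -3.16) and Ccnd1 (-0.60 and -1.40). Each of these values had an adjusted p of 2.1e-06 or less. Birc5 passed the filter on low expression only through SD libraries, with at most 0.406 RPKM in WT-TGF and 0.377 RPKM in KO-TGF.

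Against WT, 6 STAT3 targets were higher and 11 lower in KO-SD, with 4 higher and 10 lower in KO-TGF. Among all genes, 30.6% were higher and 25.3% lower in KO-SD, and 27.2% and 27.8% in KO-TGF. The acute-phase genes did not move together. Lcn2 was lower, with a mean of 205 ± 7.77 CPM in WT-SD against 60.3 ± 4.23 CPM in KO-SD (log2FC -1.76, adjusted p = 4.45e-25), and so was Serpina3n, at 35.9 ± 0.971 against 16.4 ± 2.02 CPM (-1.13, adjusted p = 9.9e-16). Hp was higher in KO-SD, with a mean of 55.1 ± 3.22 CPM against 28.8 ± 2.29 CPM in WT-SD (0.94, adjusted p = 2.34e-15), and so was Saa3, at 180 ± 6.39 against 123 ± 14.2 CPM (0.55, adjusted p = 3.99e-09). The macrophage markers given above also differed between these groups, and their part in these values was not tested.

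**Figure D5:**
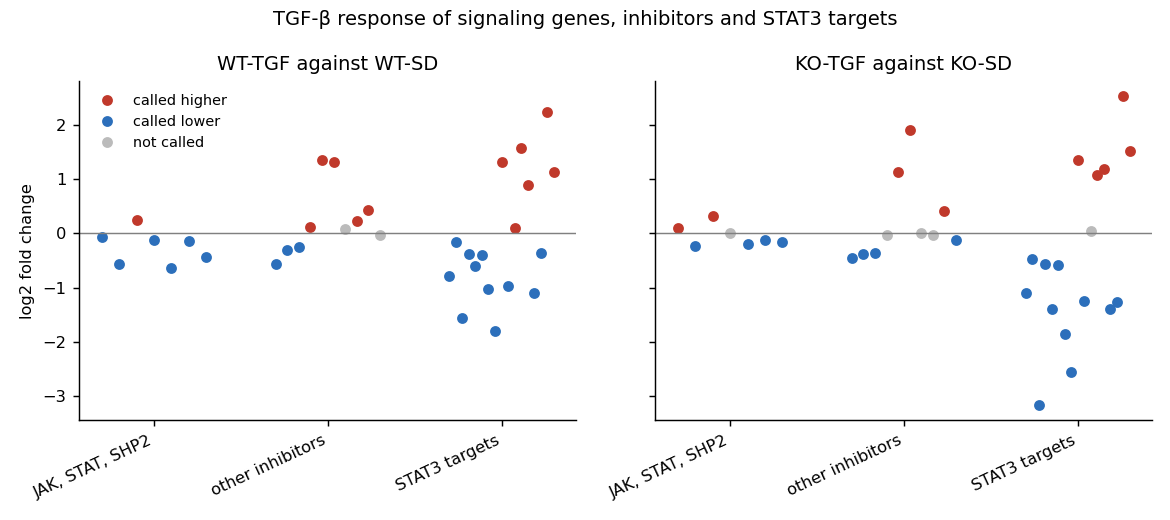
Log2 fold change with TGF-β of 34 tested pathway genes (JAK kinases, STAT factors and SHP2, other inhibitors, and STAT3 targets) in WT (left) and KO (right) MMC. Each point is a gene, colored by whether edgeR's quasi-likelihood test called it higher, lower or not. In WT 12 points are called higher and 20 lower, and in KO 10 and 19, with STAT3 targets on both sides of 0. From the list of JAK kinases, STAT factors and SHP2, 1 gene that was called lower in both genotypes is not drawn.

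Genes with the most similar course were found by Pearson's correlation of log2 CPM over the 12 libraries, among 10074 genes that averaged 5 CPM or more (10075 for Il6). The libraries fall into 4 groups, so r mainly describes the group means, and it is given as a description only. Il11 was closest to Bhlhe40 and Metrnl (r = 0.998 for both), and Lif to Pmepa1 (r = 0.998) and Rasal2 (r = 0.997). Il6 was closest to Pvr (r = 0.997) and Cct3 (r = 0.996), which were also highest in KO-TGF, at 75.8 and 185 CPM. Lifr was closest to Vcam1 and Mapre2, and Il6st to Epb41 and Stim1 (r = 0.998 for all 4).

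At a looser limit likeness was common for these genes, with 684 genes above r = 0.95 for Il11, 949 for Il6 and 686 for Lifr. Above r = 0.99 there were 81 genes for Il11, 40 for Il6 and 51 for Lifr. The closest genes of Osmr were Dag1 and C3, and those of Clcf1 were Itgb5 and Sp6 (r = 0.994 for all 4). Clcf1 had fewer genes above 0.95, 58 in all, and Sp6 shared its low level in KO, with 35.4 CPM in WT-SD, 65.4 in WT-TGF, 11.2 in KO-SD and 19.7 in KO-TGF. For Socs3 the closest were Prrc2b (r = 0.978) and Sbno2 (r = 0.975), with 71 genes above 0.95. Il11ra1 had 8, led by Inf2 (r = 0.974) and Nr1h2 (r = 0.971).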

How the data were processed

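RNA-seq counts of 12 libraries, 3 per group, were used. Per the study's methods, the authors prepared stranded mRNA libraries, mapped the single-end reads with TopHat (mm10) and used HTSeq-count for reads on RefSeq genes. The deposited files hold these raw counts, with no normalization. Reads outside exons (10.3% to 15.4%), with several alignments (11.2% to 11.7%) or on overlapping genes (0.225% to 0.274%) were left out of library sizes. Replicate libraries differed by more than sampling noise (chi-square per degree of freedom 1.35 to 5.41), so none was taken for a copy. The floor of 3 counts covers counting error only. Single markers of cell types were named after their values were seen.

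Here, exon lengths came from GENCODE vM21 (24728 of 25230 genes). Genes with RPKM >1 in at least 1 library were normalized by TMM and tested with edgeR 4.0.16 (R 4.3.3) by the quasi-likelihood test with Benjamini-Hochberg adjustment over 11477 genes, fitting all 12 libraries together with a mean for each group. The code was tested on simulated counts. The standard error is the log2 fold change over the root of F, and 95% intervals are from it. Genes named are the 9 members, every list gene with an adjusted p below 0.05, fold change above 2 and a mean of 1 CPM or more in the higher group, and Il6ra, Stat3, Jak1, Jak2 and Osm, and for likeness the 2 closest genes per member. The members and lists were chosen with earlier results of these data known. A few named genes were left out of the text. Alternatives were scaling by library size, DESeq2 1.42.0 (no independent filtering), CPM >1 in at least 3 libraries, no filter, only the groups compared, a replicate block, each library left out, and coding length for RPKM.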

Additional observations from a re-analysis of the deposited data

Results flagged for a closer look

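The TGF-β response differed between the genotypes by the interaction test (edgeR's quasi-likelihood test, Benjamini-Hochberg adjustment, 3 libraries per group) for 3 of the 9 IL-6 family genes. All 3 were more negative in KO, against 16.6% of all genes with a more negative and 8.77% with a more positive response. Taken as KO minus WT, the log2 response of Lifr differed by -0.29 (adjusted p = 0.00118), which was called under each alternative tried. The difference was -0.25 for Lif (adjusted p = 0.0272) and -0.08 for Il6st (adjusted p = 0.0454). Lif was not called with DESeq2 (adjusted p = 0.0935) or in 6 of the 12 fits without a library. Il6st was not called with DESeq2 (adjusted p = 0.204) or in 9 of those 12 fits.

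Of the 39 tested genes of the pathway lists, 14 had a more negative and 9 a more positive response in KO, against 16.6% and 8.77% of all genes. Most of the genes named from these lists were chosen for a large change in the same libraries, so how many of them differed is no evidence on the lists. Among the named genes, the more negative responses were those of the STAT3 targets Birc5 (-1.60), Serpina3n (-0.90), Cebpd (-0.83), Ccnd1 (-0.80), Hp (-0.75), Myc (-0.49), Bcl3 (-0.30), Lcn2 (-0.28) and Saa3 (-0.28). The adjusted p of these ranged from 1.31e-11 for Ccnd1 to 0.0487 for Bcl3. The more positive responses were those of Socs2 (0.59), Vegfa (0.38), Jak2 (0.33), Pim1 (0.30), Timp1 (0.28), Jak1 (0.17) and Stat3 (0.13), with adjusted p from 4.42e-09 for Vegfa to 0.0116 for Stat3.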

How the results depend on the processing

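Counts of called members and pathway genes stayed within 1.5 times the reported ones under the alternatives tried, with these exceptions. The 1 member higher in KO-SD (Il6) became 0 with library size alone, with DESeq2 and with only the groups compared, where Il6 did not reach the filter and was not tested, and ranged from 0 to 1 without a library. The 3 members with a more negative response in KO became 1 with DESeq2 and ranged from 1 to 4 without a library. The 8 pathway genes higher in KO-TGF became 2 with library size alone.

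Most changes of sign concerned values near 0. Il11 in KO against WT in SD, -0.03 as reported, was 0.00 with no filter and ranged from -0.18 to 0.10 without a library. Its interaction ranged from -0.27 to 0.01 and that of Il6 from -0.13 to 0.32. With library size alone, the log2 fold change in KO-TGF against WT-TGF was -0.08 for Birc5, -0.09 for Myc, -0.04 for Timp1, -0.11 for Il6ra and -0.11 for Jak1, that of Il6ra in SD was -0.02, that of Jak1 with TGF-β in KO was -0.10, and the interaction of Junb was -0.00. Stat3 with TGF-β in KO was 0.02 with DESeq2, with CPM >1 in at least 3 libraries and with no filter, 0.01 with only the groups compared, and from -0.01 to 0.03 without a library. Stat3 in KO-TGF against WT-TGF was 0.00 with DESeq2 and with no filter and ranged from -0.02 to 0.02 without a library. Without a library, Birc5 ranged from -0.07 to 0.18 and Il6ra from -0.07 to 0.14 in KO-TGF against WT-TGF, and the interaction of Il6ra ranged from -0.12 to 0.09. The cause of these changes was not tested.

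Libraries with the same replicate number shared little of their deviation (r from -0.07 to 0.18 over 18 pairs of libraries, 2 of them above 0.1). In 11 of the 18 the library with the same number was the best match of 3, so a weak pairing may remain. The numbers were not taken to pair the libraries. With the replicate number as a block, the members with a more negative response in KO were 4 in place of 3, with Clcf1 added (-0.18, adjusted p = 0.0407), and Il11ra1 fell with TGF-β in KO (-0.20, adjusted p = 0.0485). Depth limits Il6 and Il11 in SD, where they had at most 33 counts per library.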
